A study of Mus musculus with 66 samples.

Results

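The GFP-H3.3 line is a C2C12 mouse myoblast line that expresses histone H3.3 fused to green fluorescent protein (GFP). It was taken from the mRNA-Seq part of the study by its labels, as 2 samples of 66 in the series and of 20 mRNA-Seq libraries, 1 from growing cells and 1 from cells differentiated for 48 h. The comparison group was the 8 other GFP-H3 lines in the same state, which express H3.1, H3.2, H3t, H3mm7, H3mm11, H3mm12, H3mm13 or H3mm16 with the same tag, giving 16 libraries. Wild-type C2C12 cells (WT) carry no transgene and were left out of the comparison. All 9 lines share a Tol2-integrated, Tet-inducible vector and a reverse Tet activator, were kept in doxycycline and G418, and were sorted for GFP. Growing cells were harvested before confluence in serum-rich medium and differentiated cells after transfer to low horse serum. Each line has 1 library per state, and the methods speak of stable clones, so the effect of the histone and that of the line cannot be told apart.

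H3.3 is the replacement form of histone H3: it is made throughout the cell cycle and placed in nucleosomes outside of DNA replication, whereas H3.1 and H3.2 are placed mainly during replication. HIRA and its partners place it at active genes and regulatory regions, and DAXX with ATRX at repeats and telomeres. In myoblasts, which leave the cell cycle and fuse into myotubes when serum is withdrawn, H3.3 is known for its place at muscle genes. H3mm7, H3mm11, H3mm12, H3mm13 and H3mm16 are mouse variants of the H3.3 type, and H3t is a testis form.

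Values are FPKM, a fragment count scaled by transcript length and library size, for 22489 gene symbols. The genes of H3.3 itself, H3f3a and H3f3b, have no row in the table, so the expressed histone was not checked by its own RNA. The myoblast identity of the line was visible in 8 of 8 myoblast markers above 0 FPKM in both states, with a sum of 620 FPKM in growth (441 to 871 in the other lines). The 8 markers of differentiated muscle summed to 122 FPKM in growth and 6427 FPKM after differentiation, against 6.08 to 192 and 4441 to 19892 FPKM in the other lines. Read numbers are not given. Relative depth, estimated from the steps between low FPKM values and set to a median of 1 over the 18 GFP-H3 libraries, was 0.935 for H3.3 in growth (other lines 0.771 to 1.27) and 1.20 in differentiated cells (0.645 to 1.09).

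The comparison was set up to include the number of genes at very low level. In growth, 16865 genes were above 0 FPKM in this line, whereas the other lines had 14695 at the lowest, 15035 at the median and 15945 at the highest. After differentiation the number was 16829, against 14540, 15192 and 15477. The line was thus the highest of 9 in both states, by 920 and 1352 genes over the next line. These counts are a description only, since this feature was part of how the comparison was chosen. The same holds for the distance rule applied to them near the end. WT cells had 13858 and 14254 genes above 0. In growth the deepest library, H3mm7 at 1.27, had the highest count of the 8 other lines, and H3.3 at 0.935 was the sixth in depth. In differentiated cells H3.3 was also the deepest library. The part of depth in the counts was not tested.

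**Figure D1:**
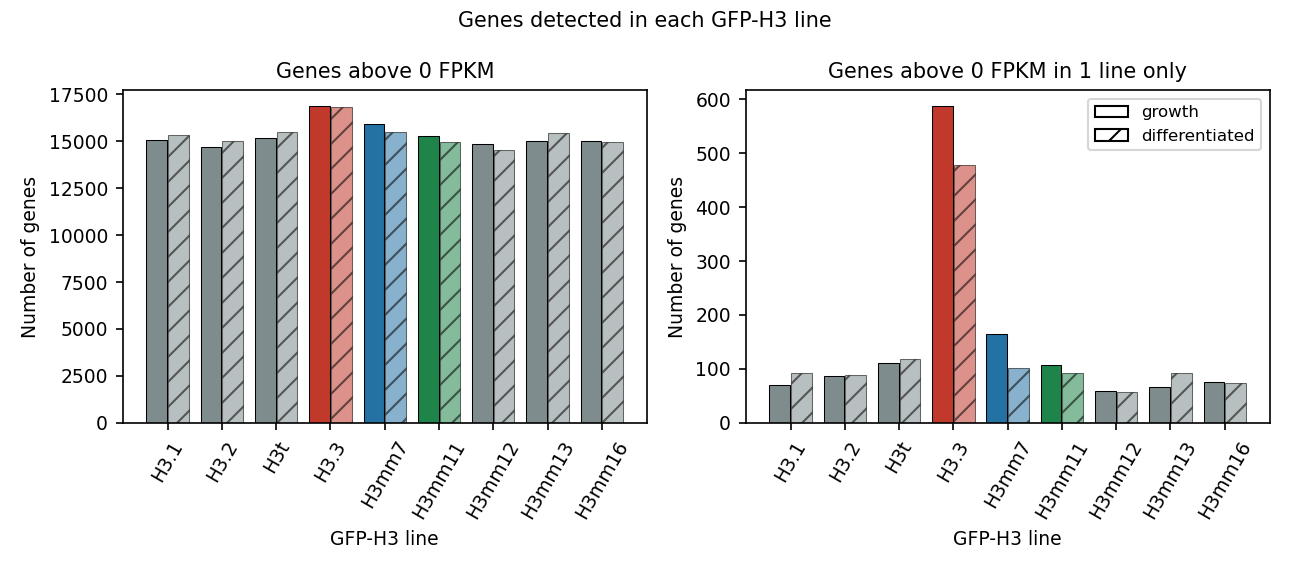
Bars give, for each GFP-H3 line, the number of genes above 0 FPKM (left) and the number above 0 FPKM in that line and listed at 0 in the other 8 lines of the state (right); plain bars are growth, hatched bars differentiated cells. H3.3 is highest in all 4 sets, with 587 and 479 genes above 0 in this line only, while no other line exceeds 164.

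Genes above 0 FPKM in H3.3 and listed at 0 in the 8 other lines numbered 587 in growth and 479 after differentiation. The same count made for each other line lay between 58 and 164 in growth and between 57 and 119 after differentiation. In the opposite direction H3.3 was lowest: 19 and 11 genes were at 0 in H3.3 and above 0 in all 8 others, against 35 to 140 and 26 to 183. The genes were low, with a median of 0.0222 FPKM in growth and 0.0193 FPKM in differentiated cells, and 47 and 36 of them reached 0.1 FPKM. Many recurred. Of the 587 genes, 219 (37.3%) were above 0 in the differentiated H3.3 library too, and of the 479 genes 222 (46.3%) were above 0 in growth. For the other lines the same share was 6.9% to 31.8% and 5.26% to 37.0%. Among 3925 genes at 0 in all 16 libraries of the other lines, 347 were above 0 in H3.3 growth and 227 in H3.3 differentiated cells, with 61 in both. Of the 347, 17.6% were above 0 after differentiation, compared with 4.64% of the 3578 that were at 0 in growth. The genes seen in H3.3 only resembled those seen in single other lines in transcript length (median 1949 bases in growth, 1448.5 to 2589 in the other lines) and in GC content (49.1%, 47.7% to 51.0%). Genes at 0 in all 9 lines in growth had shorter transcripts (median 1083 bases) and a lower GC content (45.4%). The part of length and GC content in the recurrence was not tested.

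The surplus depended on the level that a gene had in the other lines. For genes with a mean above 0 and up to 0.01 FPKM in the other 8 lines, the summed FPKM of H3.3 was 4.41 times the mean of the others in growth and 4.11 times after differentiation. No other line exceeded 1.34 and 1.63 in this class. The ratio was 2.62 and 2.27 for genes from 0.01 to 0.1 FPKM (others up to 1.23 and 1.10) and 1.48 and 1.43 for genes from 0.1 to 1 FPKM (others up to 1.22 and 1.21). From 1 to 10 FPKM it was 1.01 and 1.03, which lay within the other lines. In the lowest class, 55.6% of 2256 genes were above 0 in H3.3 growth, against 15.3% to 32.99% in the other lines. H3.3 also had the most genes at or above 0.1 FPKM (13481 against 12415 to 12890 in growth, 13690 against 12813 to 13191 after differentiation), and at 5 FPKM it no longer stood out (8216 against 8176 to 8283, 8270 against 8105 to 8401).

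**Figure D2:**
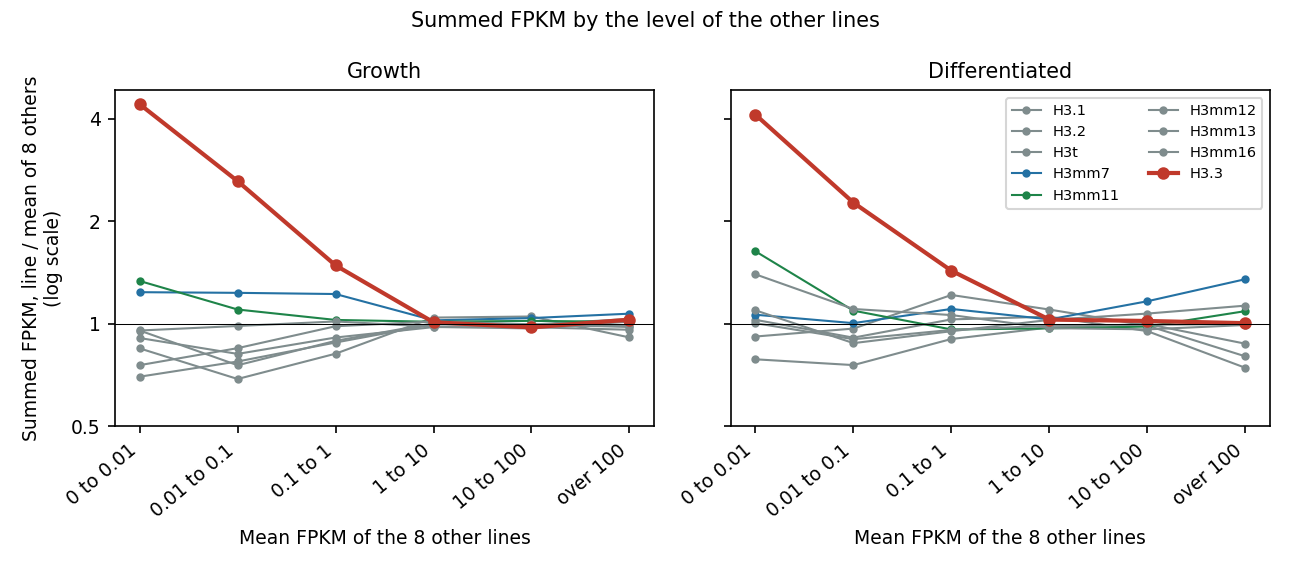
Each point is the summed FPKM of 1 line divided by the mean of its 8 other lines (log scale), for genes grouped by their mean FPKM in those 8 lines. The H3.3 curve starts at 4.41 and 4.11 for genes up to 0.01 FPKM and reaches 1.01 and 1.03 at 1 to 10 FPKM, where the 9 lines come together.

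The surplus was visible in many gene families, and those named first were chosen from the ones with a surplus in both states. Over all 22489 symbols 16865 and 16829 were above 0 FPKM, against at most 15945 and 15477. Symbols were grouped by their leading letters, and of 113 such stems with at least 20 genes, H3.3 had the most members above 0 FPKM in both states in 44. The late cornified envelope genes (Lce), whose proteins form the outer layer of the skin, had 12 of 20 members above 0 in growth (2 to 7 in the other lines) and 7 after differentiation (0 to 1). Kallikreins (Klk), secreted serine proteases, had 14 and 20 of 27, against 2 to 8 and 2 to 10. For Serpina genes, a family of secreted protease inhibitors made mainly by the liver, the numbers were 15 and 17 of 25, compared with 3 to 10 and 3 to 12. Keratin genes (Krt) had 35 and 28 of 52 above 0, against 13 to 21 and 9 to 19, and prolactin-family genes (Prl) 24 and 16 of 27, against 7 to 17 and 3 to 13. Among solute carriers (Slc), a large family of membrane transporters, the line had 320 of 369 above 0 in each state, against at most 290 and 289. The broad stem Rik had 1162 and 1164 of 1958, against at most 1068 and 1063. Other families showed no surplus. Chemokine genes (Ccl) had 9 and 11 of 24 above 0 (6 to 13 and 7 to 12), and Tas genes 4 and 5 of 38 (3 to 5 in both states).

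The highest of the genes seen in H3.3 only were still low. In growth these were 1700015G11Rik (1.29 FPKM), Spint5 (1.15 FPKM), Defb4 (0.751 FPKM), Cypt1 (0.498 FPKM), H2afb1 (0.386 FPKM), Pyy (0.324 FPKM), 2310050C09Rik (0.323 FPKM) and Defb28 (0.287 FPKM), all listed at 0 in the 8 other lines. Defb4 and Defb28 are beta-defensins of epithelia, Pyy is a gut hormone and H2afb1 a testis histone. After differentiation they were Tff2 (0.566 FPKM), a mucus peptide of the stomach, then 1700023F02Rik, Krtdap, Cryaa (a lens crystallin, 0.252 FPKM), Mmp10, Kiss1, 1700006H21Rik and again 1700015G11Rik (0.199 FPKM). Of these genes, Cypt1, Defb28, Mmp10 and 1700015G11Rik were above 0 in both H3.3 libraries.

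Transcript GC content moved with the differences of this line at moderate and high levels. Among 10931 genes with a mean of at least 1 FPKM over the 18 libraries, the median difference of H3.3 from the mean of the 8 others, on log2(FPKM + 1), was -0.02 in growth and 0.00 after differentiation. In the quintile of 2030 genes with the lowest GC content it was -0.27 in growth and -0.15 after differentiation, and in the quintile with the highest GC content 0.23 and 0.15. Other lines spanned -0.18 to 0.45 in the lowest quintile of growth, so that H3.3 was the lowest of 9 there, and -0.36 to 0.24 in the highest quintile. Its part in single gene differences was not tested, and the counts with the GC trend removed are given beside the counts below.

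**Figure D3:**
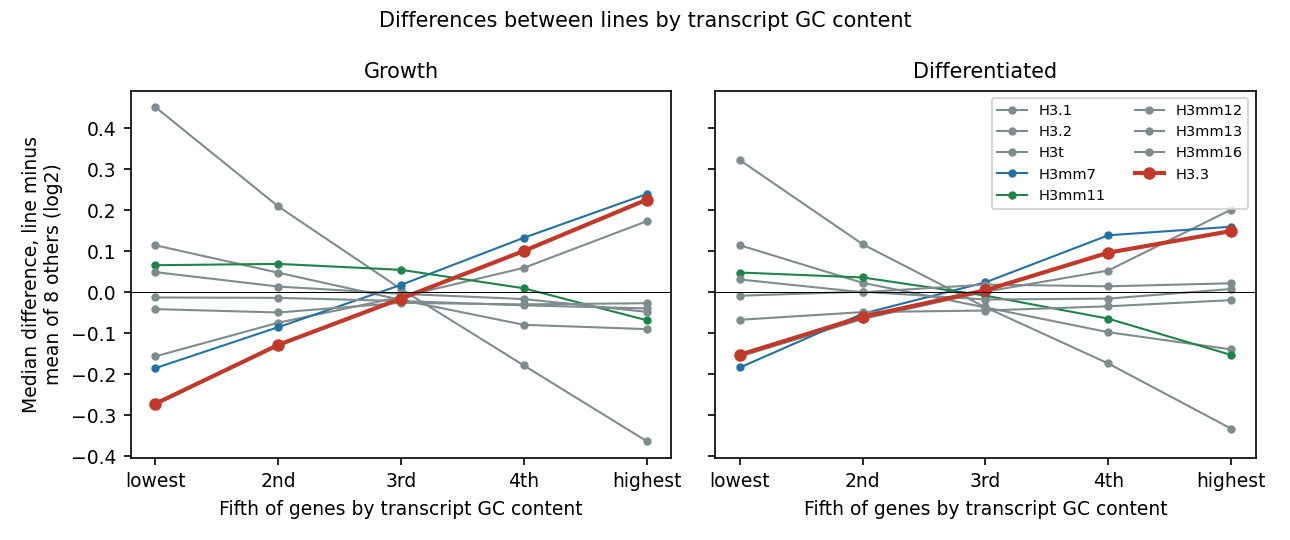
Lines join, for each GFP-H3 line, the median difference from the mean of the 8 other lines (log2 scale) in quintiles of genes ordered by transcript GC content. H3.3 rises from -0.27 to 0.23 in growth and from -0.15 to 0.15 in differentiated cells.

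Genes outside the range of the 8 other lines were then counted among the 10931. In growth, H3.3 was above the range for 1199 genes (11% of those tested) and below it for 1985 (18.2%). After differentiation it was above for 813 (7.44%) and below for 759 (6.94%). The same count for each other line gave 251 to 3194 above and 325 to 2619 below in growth, and 282 to 2286 and 614 to 2099 after differentiation, so the number for H3.3 lay inside the numbers of the other lines. The growth counts moved with GC content: 44.3% of the genes in the lowest GC quintile lay below the range and 1.58% in the highest. With the GC trend of each library removed, 1307 genes were below and 1285 above. Most gaps were small, and only 7 genes above and 1 below in growth, and 13 above and 1 below after differentiation, were at least 1 (log2) from the next line.

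In both states H3.3 was above the range for 259 genes (2.37%) and below it for 334 (3.06%), and other lines had 39 to 1041 and 65 to 895 such genes. Thus 21.6% of the genes above in growth were above after differentiation, and 16.8% of those below were below. With the GC trend removed the numbers were 242 and 227. The smaller of the 2 gaps had a median of 0.06 above and 0.05 below (log2), and 4 genes above and 0 below kept a gap of at least 1. Across the 10931 genes the differences of H3.3 in growth and after differentiation correlated with r = 0.38, within the r of 0.21 to 0.44 that the other lines gave (genes are not independent replicates). The next line below H3.3 among the 259 genes was H3mm7 for 33.2% in growth and 37.1% after differentiation. H3mm7 was the highest of the 8 others for 22.5% and 23.8% of all genes tested. For H3.1 these shares were 32.0% and 18.1% of the 259, against 16.9% and 17.8% of all. Among the 334 genes below, the next line was H3.1 for 42.8% and 20.7%, and H3mm7 for 34.4% and 41.6%. Over all genes tested H3.1 was the lowest of the 8 others for 19.2% and 14.5%, and H3mm7 for 20.3% and 21.9%.

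The 10 genes highest above the other lines in both states are described first. Scgb1a1, the secretoglobin of airway club cells (chr19:9158126-9162448, mm9), was 6.36 FPKM in growing H3.3 cells, whereas the others had 0.00 at the lowest and median and 1.90 at the highest (H3mm11). After differentiation it was 25.3 FPKM, against 0.00, 0.19 and 9.03 (H3mm11 again). The difference on log2(FPKM + 1) was 2.62 ± 0.47 (SE) in growth and 4.03 ± 0.98 after differentiation, with limma adjusted p of 0.307 and 0.955. H3.3 did not overlap the other lines in either state, but the test did not call the gene.

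A pair of genes named as mast cell proteases stood near it. Mcpt8 was 9.92 FPKM in growth (others 0.09, median 0.39, highest 2.41) and 2.34 FPKM after differentiation (0.00, 0.07 and 0.36). Mcpt1 was 9.93 FPKM (0.00, 0.07 and 4.32) and 7.53 FPKM (0.03, 0.26 and 2.00). H3.3 was above every other line in both. For Mcpt8 the mean difference of the 2 states was 2.19 ± 0.29 (SE), with a limma adjusted p of 0.083, which it shared with Chchd10 as the lowest in that comparison. Of 12 genes looked up as mast cell genes after these values were seen, 8 were above the range in both states. Mcpt8 and Mcpt1, which prompted the lookup, are among the 8. Among all tested genes the share was 2.37%, but it covers only genes that passed the filter, so the 2 are not alike. Some of the 12, such as Cpa3, lie below the filter, at levels where H3.3 had a surplus across genes in general. Tpsab1, a mast cell tryptase, was 7.23 FPKM in growth (0.70, 2.64 and 4.38) and 7.74 FPKM after differentiation (0.00, 0.18 and 3.35). The chymase Cma1 was 2.40 FPKM (up to 1.48) and 1.12 FPKM (up to 0.41). Cpa3, the mast cell carboxypeptidase, was 0.02 FPKM in both states (up to 0.01 and 0.00). Kit, the receptor for stem cell factor, and Fcer1a, a chain of the IgE receptor, were 0.00 FPKM in both states.

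Car1, a carbonic anhydrase of red blood cells and colon, was 9.92 FPKM in growth and 9.93 FPKM after differentiation, with highest values of 1.54 and 4.16 in the other lines. Ch25h, which makes 25-hydroxycholesterol, was 3.34 and 7.52 FPKM (others up to 1.35 and 3.18). The chemokine Ccl17 was 8.28 and 1.87 FPKM (up to 4.70 and 0.69), and Mfap5, a protein of elastic microfibrils, 5.06 and 11.2 FPKM (up to 2.71 and 6.20). All 4 lay above the range in both states. Sbsn, a product of cornified epithelia, was 19.4 and 4.36 FPKM (up to 9.42 and 2.21). The interferon-induced gene Ifi27l2a was 3.28 and 39.8 FPKM (up to 1.73 and 20.3), and 3830417A13Rik 22.3 and 8.25 FPKM (up to 8.79 and 4.48). The next line was H3mm11 or H3mm7 in 15 of the 20 gene and state pairs of the 10 genes, which were chosen for their gaps. Over all tested genes H3mm7 was the highest of the 8 others for 22.5% in growth and 23.8% after differentiation. For H3mm11 the shares were 7.65% and 11.3%. Limma adjusted p values of these 7 genes ranged from 0.240 to 0.700 in growth. Whether such a level came from all cells or from a few cells cannot be told apart in bulk RNA.

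**Figure D4:**
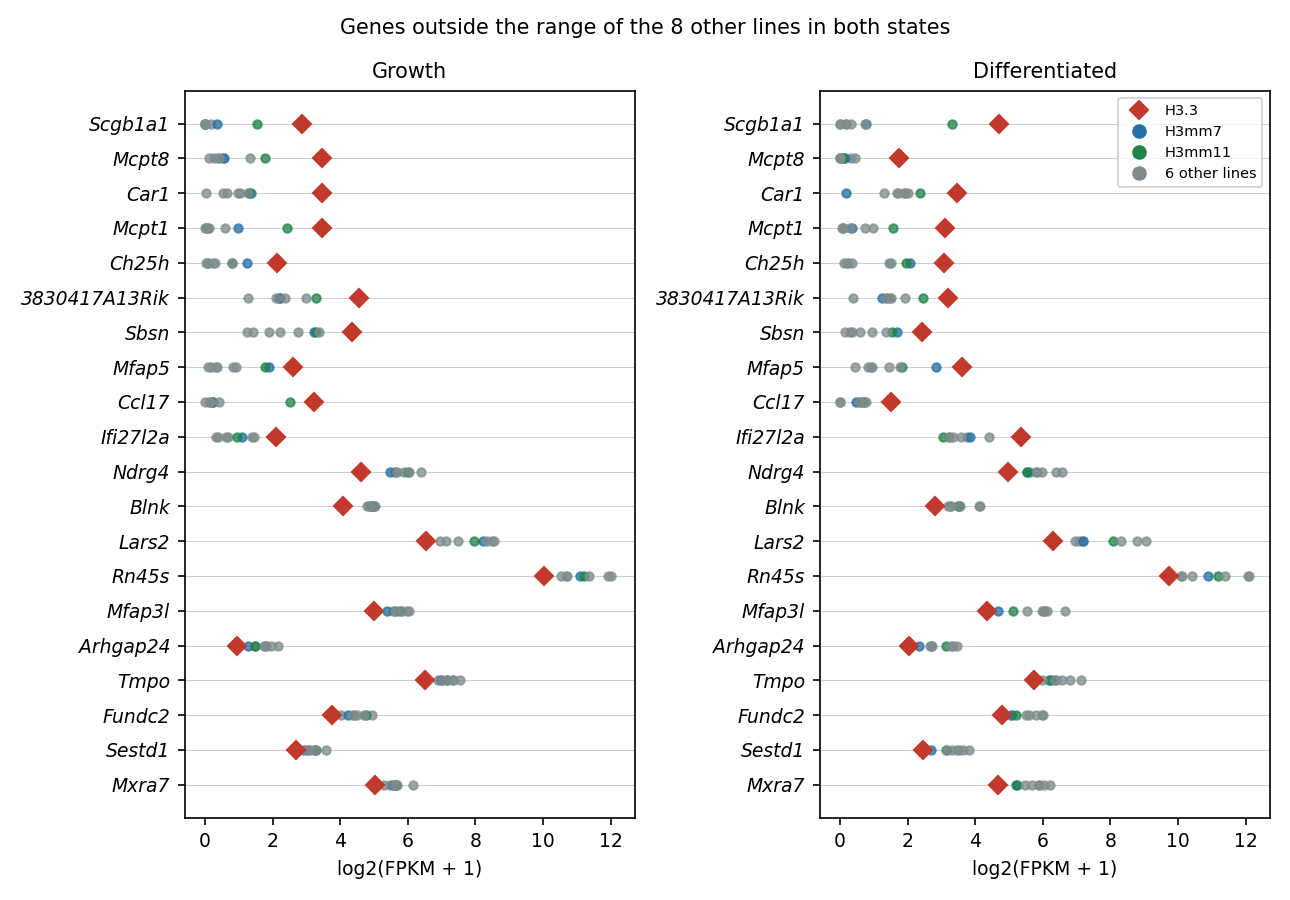
Points give log2(FPKM + 1) of each GFP-H3 line for the 10 genes above and the 10 genes below the other lines in both states with the largest gaps. H3.3 (diamonds) is right of all lines for Scgb1a1 to Ifi27l2a and left of all lines for Ndrg4 to Mxra7, with smaller gaps on the low side.

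Below the range the distances were smaller. Ndrg4, of the NDRG family, was 23.5 FPKM in growth (others 43.6, median 54.2, highest 83.6) and 30.1 FPKM after differentiation (45.0, 55.4 and 93.5), a difference of -1.23 ± 0.28 and -0.95 ± 0.38 (log2, SE). Blnk, an adaptor of B cell receptor signalling, was 15.8 FPKM in growth, where the other 8 lines lay close together at 26.9 to 31.6, and 5.95 FPKM after differentiation (8.19 to 16.6). WT cells, outside the comparison, had 17.4 and 4.44 FPKM of Blnk, close to or under H3.3. Ribosomal RNA precursor (Rn45s) was 1033 and 859 FPKM, against 1486 to 4124 and 1094 to 4423. Lars2, the mitochondrial leucyl-tRNA synthetase, was 92.5 and 78.3 FPKM (122 to 372 and 124 to 531). Both were lowest in H3.3 in both states. Mfap3l, Arhgap24, Tmpo (a protein of the nuclear lamina), Fundc2, Sestd1 and Mxra7 were also below in both, with Tmpo at 89.9 and 52.1 FPKM (117 to 184 and 62.5 to 140). WT cells had 324 and 570 FPKM of Rn45s, and the part of ribosomal RNA in the other differences was not tested.

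The model across all genes called almost nothing. Limma set the single H3.3 library against 8 others and assumes that it varies as they do. It called 1 gene of 10931 in growth and 1 after differentiation (0.00915% each), and 0 (0%) for the change with differentiation and for the mean of the 2 states, while 582, 213, 265 and 337 genes had an unadjusted p below 0.05 by this test. Both calls rest on a listed 0. Lipa, the lysosomal acid lipase, was 0.00 FPKM in H3.3 growth against 10.7 to 19.3 FPKM (limma adjusted p = 2.1e-04), yet 51.5 FPKM after differentiation, where H3t and H3mm11 were listed at 0. Dag1, dystroglycan of the muscle membrane, was 0.00 FPKM in differentiated H3.3 cells against 76.4 to 192 FPKM (limma adjusted p = 8.2e-05) and 49.1 FPKM in growth, where H3mm7 was at 0. Such a 0 can be a failed estimate, and without genes of this kind limma called 0 genes in both states.

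Outside the range in growth only were 931 genes above and 1618 below. Another 9 genes were above in growth and below after differentiation, and 33 the reverse. Genes in this and the next paragraph were chosen after their values were seen, since the rule for them also asked for a limma call in the change with differentiation, and there were 0 such calls. Sprr2h, a small proline-rich protein of the epidermis, was 10.2 FPKM in growing H3.3 cells (others 0.34, median 1.01, highest 3.90) and 0.05 FPKM after differentiation. Clu, the extracellular chaperone clusterin, was 5.32 FPKM (0.05, 0.32 and 1.94). Wnt10a, a Wnt ligand, was 3.23 FPKM (0.14, 0.32 and 1.24), and Ppbp, a platelet chemokine, 7.39 FPKM (0.00, 0.18 and 3.49). These genes were among those with the largest gaps above. On the low side Tdg, a DNA repair glycosylase, was 3.25 FPKM against 6.17 to 27.1, although WT cells had 3.33 FPKM. Rpph1, the RNA component of ribonuclease P, was 1.63 FPKM against 3.54 to 18.04.

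After differentiation only, 521 genes were above and 416 below. Isg15, a ubiquitin-like protein induced by interferon, was 21.3 FPKM (others 0.83, median 2.00, highest 10.3). Irf7, a transcription factor of the interferon response, was 10.2 FPKM (0.16, 0.83 and 4.86). In growth both genes lay inside the range of the other lines. Ccdc3 was 11.9 FPKM (up to 5.57) and AI607873 9.10 FPKM (up to 4.29). On the low side Ptms was 209 FPKM (342 to 634), the nuclear long RNA Neat1 13.5 FPKM (22.1 to 81.6), and the cell cycle gene Ccng2 7.72 FPKM (12.4 to 24.5).

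The interferon list, which was known from earlier results of these data, was then counted as a whole. Of its 36 genes 35 had a row and 16 passed the filter. Of the 16, 12 were above the range after differentiation and 1 below, where 7.44% and 6.94% of all tested genes were. The filter mean includes the H3.3 libraries, which favours genes that are high in H3.3. Irf7 and Xaf1, both among the 12, passed the filter only with these libraries. In growth 4 were above and 3 below (11% and 18.2% of all tested genes). The median difference was 0.05 in growth and 1.49 after differentiation (log2), while the medians of the other lines lay between -0.76 and 0.56 after differentiation and the median over all tested genes was 0.00. In all, 4 members were above in both states. Of these, Xaf1 was 1.29 FPKM in growth (others 0.33 to 0.56) and 5.95 FPKM after differentiation (0.93 to 2.24), and Ddx58, the RNA sensor RIG-I, 1.14 FPKM (0.51 to 1.09) and 8.51 FPKM (0.86 to 4.00). Irf9 and H2-D1 were the others. B2m, the light chain of class I histocompatibility molecules, was below in growth (322 FPKM, others 325 to 434) and above after differentiation (1179 FPKM, 702 to 984). Irf1 went the other way and was the lowest of 9 in both states, at 12.99 FPKM (13.01 to 17.1) and 6.45 FPKM (7.17 to 19.9). Bst2 was 55.8 FPKM after differentiation, within the range, since H3mm7 had 70.7 FPKM. No member was called by limma, and the adjusted p of Irf7 and Isg15 after differentiation was 0.955.

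**Figure D5:**
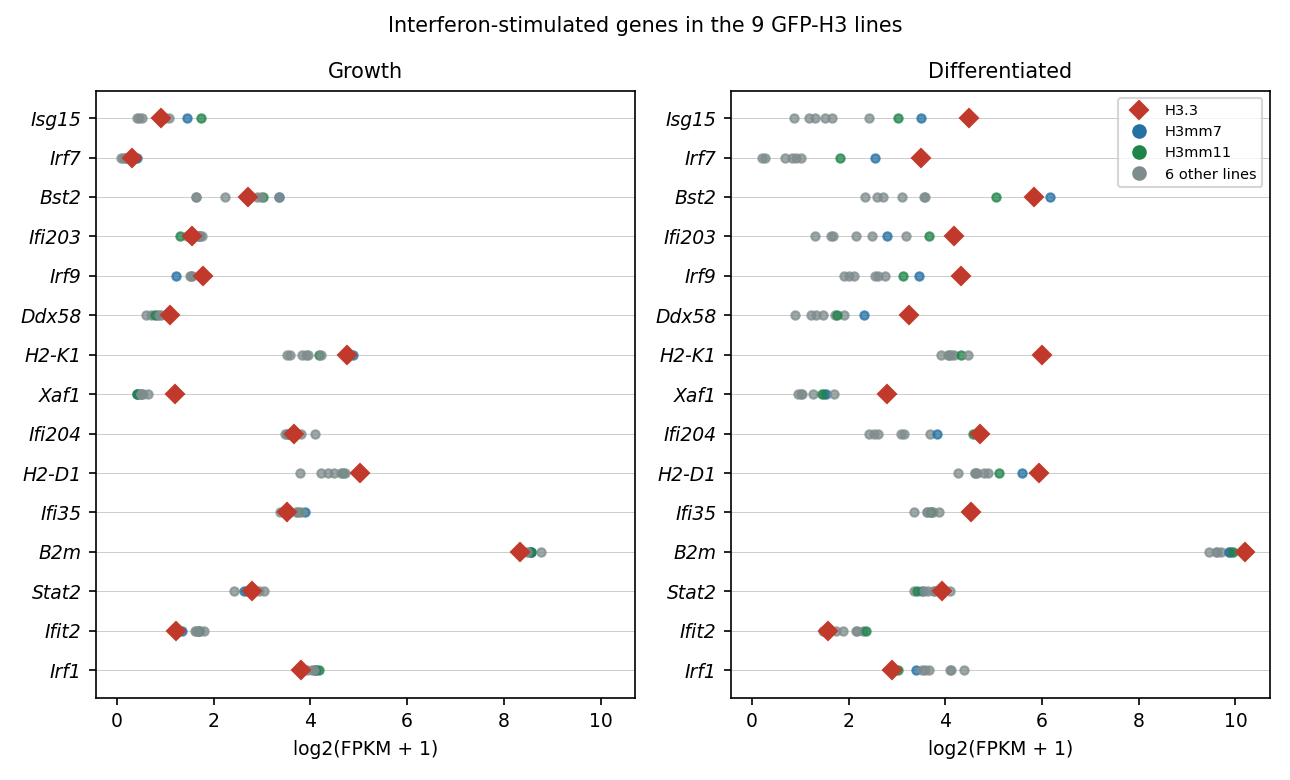
Points give log2(FPKM + 1) of 15 tested interferon-stimulated genes in the 9 GFP-H3 lines. In differentiated cells H3.3 (diamonds) is right of all other lines for 11 of the genes drawn, with Bst2, Stat2, Ifit2 and Irf1 as the exceptions, whereas in growth it is so for 4.

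Genes of endoplasmic reticulum stress were high after differentiation in H3.3, H3mm7, H3mm11 and H3.2. Of 28 tested ER chaperone and ERAD genes, 5 were above the range after differentiation and 0 below (all tested genes 7.44% and 6.94%), and the median difference was 1.49, against 0.07 in growth. The median of H3.3 was the second of 9, and the other lines spanned -1.11 to 1.69. The chaperone Hspa5 was 3688 FPKM (others 205, median 453, highest 2780 in H3mm7) after differentiation and 324 FPKM in growth (240 to 324). Xbp1, a transcription factor of the stress response, was 165 FPKM, just above H3mm7 at 164 FPKM. In the ATF4-CHOP branch 7 of 33 were above and 0 below (all tested genes again 7.44% and 6.94%), with a median of 1.04 that was the highest of 9 (others -1.37 to 1.03). Atf3 was 103 FPKM (6.54 to 92.4) and Trib3, a pseudokinase of this branch, 247 FPKM (10.6 to 243). For other members H3.3 was not the highest: Herpud1, of ER-associated degradation, was 459 FPKM against 515 FPKM in H3.2, and the transcription factor Ddit3 (CHOP) 535 FPKM against 945 FPKM in H3mm7 and 582 FPKM in H3.2.

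With H3mm7 and H3mm11 left out, limma called 9 genes in growth (0.0823%), 49 after differentiation (0.448%), 69 for the change (0.631%) and 20 for the mean of the states (0.183%). These lines were left out because of their profiles after differentiation, so the counts are a description and no independent evidence. After differentiation 41 were higher and 8 lower in H3.3. Among them H2-M10.1, a class I histocompatibility gene, was 31.2 FPKM in the H3.3 line, with 42.6 FPKM for H3mm7 and 10.9 FPKM for H3mm11, and at most 0.05 FPKM in the other 6 lines. Avil, the actin regulator advillin, was 40.7, 65.9 and 10.3 FPKM in these 3 lines and at most 0.76 in the others. Cd74, the class II invariant chain, was 14.3, 24.2 and 6.07 FPKM, against at most 0.53. Chchd10, a mitochondrial protein, was 41.7 FPKM in H3.3 and at most 5.24 in the other 8 lines. In growth the calls included Scgb1a1, Mcpt1, Mcpt8, Ccl17, Ppbp and Clu.

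The medians of muscle and cell cycle genes lay inside those of the other lines in both states. The counts that follow stand beside 11% above and 18.2% below over all tested genes in growth, and 7.44% and 6.94% after differentiation. Of 36 tested genes of muscle contraction, 0 were above and 2 below after differentiation, Tnnt1 (116 FPKM, others 149 to 1070) and Tpm1 (600 FPKM, 662 to 2828), and the median difference was -0.54 (other lines -1.03 to 1.67). Their change with differentiation had a median of 4.04, against 3.43 to 6.32. In growth 4 were above and 1 below, the 4 including the myosin light chain Myl2 at 0.45 FPKM (0.00 to 0.06). Of 37 cell cycle genes 3 were above and 6 below in growth, near the shares of all tested genes, and 0 were outside after differentiation, with a median change of -4.23 (-4.97 to -2.33). Matrix genes were higher in growth: the median of 30 tested was 0.25, the highest of 9 (others -0.28 to 0.12), with 6 above and 1 below. Bgn, a small proteoglycan, was 77.5 FPKM (8.84, median 16.7, highest 44.9), and Spp1, osteopontin, 680 FPKM (380 to 577). Of 22 cholesterol synthesis genes 9 were below in growth (18.2% of all tested genes) and 0 above, such as Idi1 at 67.0 FPKM (93.4 to 123).

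Other signalling and identity genes were counted the same way. Of 19 immediate-early genes 6 were above in growth and 0 below (11% and 18.2% of all tested genes), with Fos, Fosl1, Junb, Egr3, Ier2 and Dusp1 as the 6, and after differentiation 1 was above and 1 below. Of 14 tested Hox genes 4 were above in growth (among them Hoxa10, Hoxa11 and Hoxc13) and 0 below, beside the same 11% and 18.2%, and their median of 0.26 was the highest of 9 (others -0.30 to 0.16). For 23 genes of TGF-beta and IGF signalling the growth median was 0.26 as well, with 5 above and 3 below (11% and 18.2% of all tested genes), and after differentiation it was -0.31 with 0 above and 4 below (7.44% and 6.94%). Myogenic regulators had 2 above and 3 below of 17 in growth, near the shares of all tested genes, and 0 and 1 after differentiation, and the homeobox gene Six4 was below in both states.

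Genes that handle histones were counted as a list of 15 tested histone chaperones and partners, which holds chaperones of H3.3 and of other forms, such as Chaf1a and Chaf1b of the replication-coupled CAF-1 complex and Hjurp, the CENP-A chaperone. Of the 15, 4 were above and 3 below in growth (11% and 18.2% of all tested genes), and 1 and 1 after differentiation (7.44% and 6.94%), with medians of 0.03 and -0.10. Hira, of the complex that places H3.3 at genes, was 17.7 FPKM in growth (15.1 to 21.2) and 13.1 FPKM after differentiation (7.78 to 13.9), inside the range. Atrx was inside as well, at 8.99 FPKM (8.89 to 15.996) and 8.46 FPKM (7.87 to 16.6). Daxx, its partner, was above in both states by a small gap, at 11.9 FPKM (7.91 to 11.6) and 11.08 FPKM (6.62 to 11.03). Dek, a chromatin protein and H3.3 chaperone, was below in both, at 60.2 FPKM (69.6 to 137) and 16.7 FPKM (17.2 to 26.3). Among 8 tested replacement variants, 2 were below in growth (18.2% of all tested genes), H2afz (803 FPKM, 896 to 1036) and H2afj (8.51 FPKM, 9.60 to 19.5).

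Markers of other cell types were counted in full. Over all 22489 symbols, 16865 were above 0 FPKM in H3.3 growth and 16829 after differentiation (14695 to 15945 and 14540 to 15477 in the other lines). Of 10 liver markers 5 were above 0 in growth and 8 after differentiation (2 to 4 in the other lines), with sums of 4.18 FPKM (0.363 to 0.806) and 1.02 FPKM (0.0646 to 0.618). Apob alone was 3.43 FPKM in growth, while albumin (Alb) was 0.00 FPKM in growth and 0.01 FPKM after differentiation. Of 13 immune markers 7 and 9 were above 0 (5 to 9 and 4 to 8), with sums of 4.72 and 4.15 FPKM (1.13 to 3.70 and 0.571 to 4.66), and Emr1 was 0.00 FPKM. Neuron markers above 0 numbered 12 and 14 of 14 (9 to 11 and 8 to 11), and testis and germ cell markers 11 and 8 of 16 (3 to 8 and 3 to 7), with sums inside the other lines. For the 5 tested neuron markers the median difference was the lowest of 9 in growth, at -0.85 (others -0.67 to 0.80). After differentiation it was -0.11 (-0.27 to 0.46). Of 11 epithelial markers 10 were above 0 in both states (6 to 10 and 5 to 8). Their growth sum of 264 FPKM lay inside the other lines (123 to 405). After differentiation the sum was 96.8 FPKM (10.6 to 95.6) and came mostly from Cdsn at 71.9 FPKM, while Epcam was 0.00 FPKM. Endothelial markers above 0 numbered 7 and 9 of 10 (4 to 7 in both states), with sums of 3.65 FPKM (1.10 to 7.81) and 4.15 FPKM (0.321 to 3.65). Bone and cartilage markers numbered 11 and 12 of 12 (7 to 11 and 5 to 8), with sums of 22.5 FPKM (18.3 to 25.5) and 34.9 FPKM (14.2 to 33.2). The part of other cell types in the low genes was not tested. Adipocyte markers above 0 numbered 8 of 10 in both states, more than in any other line (4 to 5 and 3 to 6). Their sums were inside the other lines, at 41.3 FPKM (17.3 to 42.3) and 35.6 FPKM (15.0 to 53.6). The sum for smooth muscle markers was inside the other lines in growth. After differentiation the smooth muscle sum was lowest in H3.3 (1290 FPKM, 1496 to 4559).

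Position along the genome was read from the mm9 annotation for 10279 of the tested genes (94.0%). The median difference by chromosome ran from -0.12 (chromosome 13) to 0.08 (chromosome 7) in growth and from -0.09 (chromosome 12) to 0.10 (chromosome 8) after differentiation. Chromosomes with lower GC content in their tested transcripts were among the low ones, such as chromosome 13 at a median of 46.3% GC, and chromosome 7 had 54.1%. Of 402 windows of 25 neighbouring tested genes, none held more than 4 genes above in both states (2.37% of all tested genes). The most genes below in both states, 7 of 25, lay in chr2:146681600-151937112 (3.06% of all tested genes). This window was picked as the highest of the 402, and the part of GC content in it was not tested. Its 7 genes were Gzf1, Zfp120, Gm14139, Zfp937, 3300002I08Rik, Zfp442 and Nanp. The median differences of that window were -0.16 in growth and -0.22 after differentiation.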

How the data were processed

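RNA of growing and differentiated C2C12 lines was sequenced as mRNA, with 1 library per line and state. The authors aligned reads to mm9 with TopHat2 2.0.8 and computed the deposited FPKM values with cuffdiff of Cufflinks 2.0.1, as the methods and the submitters' processing notes give it. Read counts were not used here, so depth is unknown and only relative depth was estimated, from FPKM values between 1e-04 and 0.1.

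Values were compared as log2(FPKM + 1), which understates changes of low genes. Genes with a mean of at least 1 FPKM over 18 libraries (10931 of 22489) were tested with limma 3.58.1 (trend, robust, R 4.3.3). That mean includes the H3.3 libraries, so a gene high in H3.3 passes the filter more easily. A call needed a difference of 1 or more together with an adjusted p under 0.05. Since H3.3 has 1 library per state, the p-values assume that it varies like the 8 other lines. On simulated data with 200 changed genes, changes of 2 (log2) were recovered for 90% in growth and 72% after differentiation. Among the unchanged genes there were 2 and 8 false calls. Only genes of moderate or high level were changed, and values were drawn independently for each gene. Recovery was thus not measured for low genes or for differences shared across genes. GC content was read from mm9 transcripts for 10150 tested genes (92.9%). Named genes were the 10 above and the 10 below in both states with the largest smaller gap, the 8 highest genes listed at 0 elsewhere, calls, chaperones, and up to 4 genes of a list, and genes chosen after their values were seen are named as such. Members and lists were chosen with earlier results of these data known. Other pseudocounts, filters, line sets and left-out lines were tried, and GC adjustment and leaving out doubtful zeros were chosen after seeing the data. Results of a few genes are not reported here.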

Additional observations from a re-analysis of the deposited data

Results flagged for a closer look

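In 13 of 112 groups of 9 lines examined, H3.3 lay farther from its nearest line than Dixon's 95% critical value of 0.493 of the range allows. For values not chosen for their distance, chance gives such a gap for any of the lines in about 1 in 20 groups. Among 58 list means 0 stood apart, and among 44 gene values 8 did. In growth these were 13481 genes at or above 0.1 FPKM and 587 genes above 0 in H3.3 only. After differentiation they were 16829 genes above 0, 13690 at or above 0.1 FPKM and 479 above 0 in H3.3 only. The gene values, on log2(FPKM + 1), were 3.45 for Mcpt8, 3.45 for Car1, 4.07 for Blnk and 0 for Lipa in growth. After differentiation they were 1.74 for Mcpt8, 3.09 for Mcpt1, 1.52 for Ccl17 and 0 for Dag1. Blnk, Lipa and Dag1 were the lowest of 9 and the others the highest. The low gene counts were part of how the comparison was chosen, and the genes were named for their distance or their call, so the 13 are a description and cannot be set against that rate.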

How the results depend on the processing

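No paired analysis was possible because H3.3 has 1 library per state, so that no replicate numbers pair libraries, while the change and the mean were taken within each line. Limma called 46 genes in growth, 35 after differentiation, 23 for the change and 33 for the mean with no filter on low values, and 9, 49, 69 and 20 without H3mm7 and H3mm11. Against the 5 other H3.3-type lines it called 4 in growth and 2 after differentiation, and 0 and 0 without doubtful zeros. Leaving out 1 line gave 1 to 6 calls in growth, 1 to 2 after differentiation, 0 to 1 for the change and 0 to 6 for the mean, with the highest counts without H3mm7 or H3mm11. A gap of at least 1 left 7 genes above and 1 below in growth, 13 and 1 after differentiation, and 4 and 0 in both states. With no filter 3675 genes were above in growth, 2680 after differentiation and 1133 in both, and with a mean of at least 5 FPKM 151 were above in both. Without H3mm7 and H3mm11, 1998 were above in growth, 2414 above and 2233 below after differentiation, and 782 and 937 in both. GC adjustment left 1307 below in growth. Leaving out 1 line gave 1217 to 1859 above and 2020 to 2617 below in growth, 835 to 1839 and 780 to 1559 after differentiation, and 266 to 657 and 343 to 820 in both, each highest without H3mm7. Without H3.1 there were 476 above and 576 below in both. Genes at or above a threshold in H3.3 and below it in the 8 others numbered 327 (0.1 FPKM) and 99 (1 FPKM) in growth, 282 and 98 after differentiation, and the excess over the highest line was 591 and 139, then 499 and 78. Leaving out 1 line gave 612 to 723 and 500 to 585 genes in H3.3 only, and an excess of 920 to 1575 (without H3mm7) and 1352 to 1353. No direction reversed. Of the values of named genes under alternatives 510 moved by less than the spread and 18 by more, and of list medians 114 and 2. The causes were not tested. With 1 library per line, the spread between cultures of a line was not measured, and 0 FPKM can be a failed estimate.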
